A study of Mus musculus with 12 samples.

Results

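Ssbp2, Tspan15, Rnf24, Pea15a, Dock8 and Gm30524 were 6 genes of unrelated families, selected on the same RNA-seq counts described here because their 6 iTgMir483 livers lay clear of the 6 Control livers with a small spread within each group. They are 6 of the 55401 genes in the count table, and all 6 were among the 13205 genes that passed the filter on low counts. The livers came from female mice at 15 weeks of age, 6 of genotype iTgMir483 and 6 littermates of genotype control, each mouse giving 1 library. The iTgMir483 mice carried an extra copy of the microRNA gene Mir483 at the ubiquitously active Rosa26 locus in a Tet-off design, in which a doxycycline-sensitive transactivator drives the transgene unless the drug is given. Doxycycline was given in the drinking water through pregnancy and then withdrawn, so that Mir483 was expressed from birth, and the selection cassette had been removed with a CMV-Cre that acts in all tissues. The label of the CMV cross is shared by both groups, and which of the alleles the Control littermates carried is not given in the sources used here. The transgene was not limited to hepatocytes, and the mice are growth restricted, so a change of level in whole liver cannot be assigned to a cell type: more cells of a type and more RNA per cell cannot be told apart.

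The 6 genes act in different places in the cell. SSBP2 is a single-stranded DNA-binding protein that joins the LDB1 adaptor and protects it and its LIM-domain partners from degradation. TSPAN15 is a tetraspanin of the group that escorts the sheddase ADAM10 from the endoplasmic reticulum to the cell surface, where ADAM10 cuts membrane proteins such as N-cadherin. RNF24 is a membrane-anchored RING-H2 protein that binds TRPC cation channels in the Golgi. PEA-15, the product of Pea15a, is a small death effector domain protein that holds ERK kinases in the cytoplasm and can bind FADD. DOCK8 is an exchange factor that activates CDC42 and is best known from leukocytes. Gm30524 is annotated as a long intergenic non-coding RNA.

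The Mir483 hairpin yields miR-483-3p and, from its other arm, miR-483-5p, which pair with messenger RNAs through bases 2 to 8, the seed. They are shown because the transgene supplies them and because their seed matches were counted in the genes described. Both are encoded on the minus strand (GRCm38.p6, RefSeq), at chr7:142654932-142654952 for miR-483-3p and chr7:142654968-142654989 for miR-483-5p, and the capitals mark the seed.
miR-483-3p: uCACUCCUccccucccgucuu
miR-483-5p: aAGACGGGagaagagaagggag

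A match to the miR-483-3p seed (AGGAGTG) was present in the longest annotated 3′ UTR of Rnf24 and Pea15a, both of which had higher levels in iTgMir483 livers. The 3′ UTR of Rnf24 (5378 bases) held 2 matches and that of Pea15a (1898 bases) held 1. The 3′ UTRs of Ssbp2 (2734 bases), Tspan15 (2617 bases) and Dock8 (1385 bases) held 0. Of 12090 tested genes with an annotated 3′ UTR, 1521 (12.6%) held a match, and the median length of these UTRs was 1164 bases. No match to the miR-483-5p seed (CCCGTCT) was found in the 5 UTRs, against 3.26% of all these genes. The sites are printed with the match in capitals, in the orientation of the transcript, from chr2:131303219-131303247 and chr2:131302613-131302641 (minus strand) for Rnf24 and from chr1:172196928-172196956 (minus strand) for Pea15a.
Rnf24, first site: ccaacgccaaaAGGAGTGgatgagcctgc
Rnf24, second site: cccactggctaAGGAGTGtctcttggccc
Pea15a: tccatgggagcAGGAGTGagacggcgctt

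Library totals ranged from 12244123 to 30431286 counts in Control livers and from 12415140 to 15846175 in iTgMir483 livers, so that 1 count was worth 0.0342 to 0.0914 CPM, the count scaled to a common library total with TMM factors. Mir483 had 0 counts in each Control library and 318 to 761 counts, or 23.3 to 54.3 CPM, in the iTgMir483 libraries. These counts come from polyadenylated transcripts and not from the mature microRNAs. Across all genes tested, 11.1% were called in either direction by edgeR's quasi-likelihood test at an adjusted p under 0.05 and a fold over 1.5, 8.41% were called higher and 2.73% were called lower. Every iTgMir483 library lay above every Control library in 5.09% of the genes. All 6 of the 6 genes were called higher and did not overlap between groups, which is how they were chosen, so nothing is read from those counts.

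**Figure D1:**
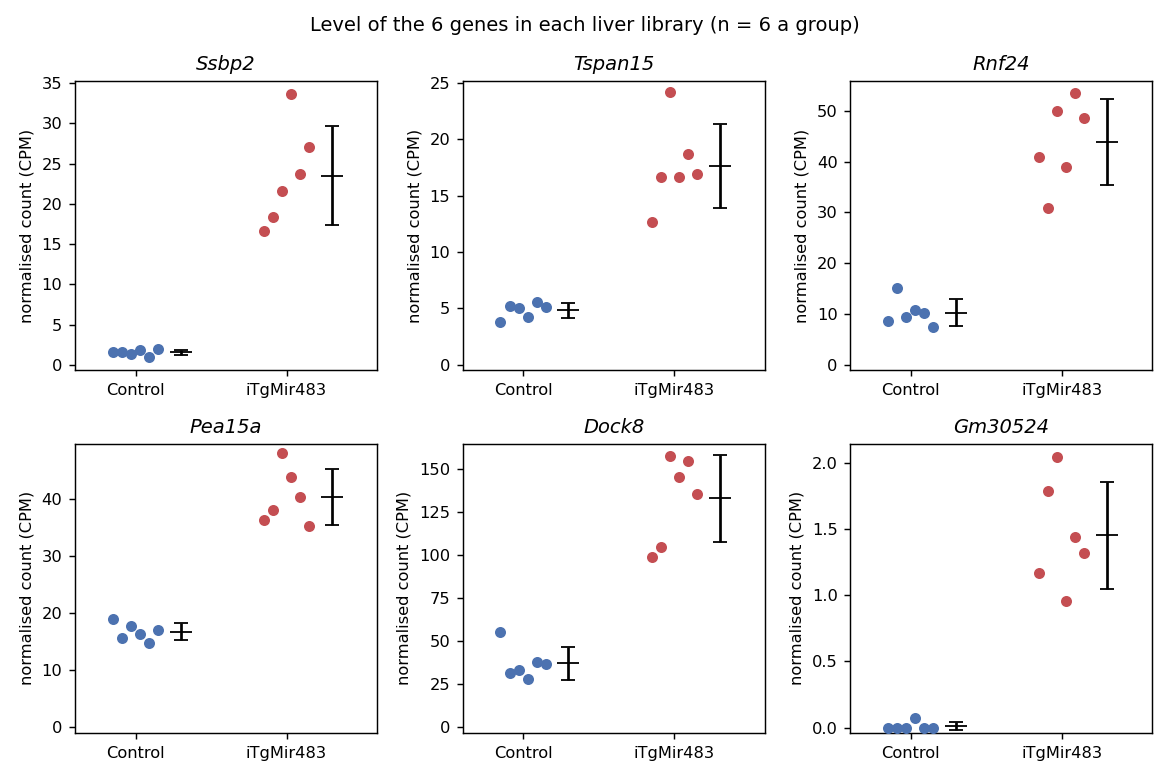
TMM-normalised CPM (y axis, linear, 1 scale per gene) in each of the 6 Control and 6 iTgMir483 liver libraries, with the group mean and SD as a bar beside the points. The lowest iTgMir483 library lies above the highest Control library for each of the 6 genes, from 1.80 times for Dock8 to 8.64 times for Ssbp2 among the 5 protein-coding genes.

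Ssbp2 (ENSMUSG00000003992, chr13:91460283-91703429, plus strand, GRCm38) was the most strongly higher of the coding members. Its level ran from 0.938 CPM in Control replicate 5 to 1.92 CPM in Control replicate 6 with a median of 1.59 CPM, and from 16.6 CPM in iTgMir483 replicate 1 to 33.6 CPM in iTgMir483 replicate 4 with a median of 22.7 CPM. The group means were 1.54 ± 0.350 CPM (SD, n = 6) and 23.5 ± 6.20 CPM (SD, n = 6), a log2 fold change of 3.92 (SE 0.205) and a ratio of 15.3. The groups were separated by 8.64 times between their nearest libraries, the widest gap of the 5 coding genes. As a level per length, Ssbp2 was the lowest of the coding genes in Control livers, at 0.484 ± 0.108 TPM, the same scale corrected for exon length, and reached 8.21 ± 1.87 TPM (SD, n = 6) in iTgMir483 livers. It spans 243.0 kb, the longest gene body of the 6.

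Tspan15 (ENSMUSG00000037031, chr10:62185396-62231251, minus strand) was low but counted in every library. Control livers ranged from 3.83 to 5.56 CPM with a median of 5.07 CPM, and iTgMir483 livers from 12.7 CPM in replicate 1 to 24.2 CPM in replicate 3 with a median of 16.8 CPM. The means were 4.83 ± 0.665 CPM and 17.6 ± 3.77 CPM (SD, n = 6), a log2 fold change of 1.87 (SE 0.152). Replicate 3 stood above the other iTgMir483 libraries, which lay between 12.7 and 18.7 CPM.

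Rnf24 (ENSMUSG00000048911, chr2:131298064-131352892, minus strand) was the member with 2 seed matches printed above. It ranged from 7.50 to 15.2 CPM (median 9.83 CPM) in Control livers and from 30.8 to 53.6 CPM (median 44.8 CPM) in iTgMir483 livers, with means of 10.3 ± 2.66 CPM and 43.8 ± 8.46 CPM (SD, n = 6). The log2 fold change was 2.09 (SE 0.171). Control replicate 2 had the highest Control level, and iTgMir483 replicate 2, the library with most Mir483, had the lowest iTgMir483 level.

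Pea15a (ENSMUSG00000013698, chr1:172196728-172206804, minus strand) had the smallest spread of the 6 genes. Its coefficient of variation was 8.99% in Control livers and 12.0% in iTgMir483 livers, against 13.8% to 25.9% (Gm30524 left out for its zeros) and 19.0% to 27.7% for the others. Levels ran from 14.8 to 19.0 CPM (median 16.7 CPM) and from 35.2 to 47.9 CPM (median 39.1 CPM). The means were 16.8 ± 1.51 CPM and 40.3 ± 4.85 CPM (SD, n = 6), and the log2 fold change of 1.26 (SE 0.0972) was the smallest of the 6. The gene therefore differed least but with the tightest groups.

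Dock8 (ENSMUSG00000052085, chr19:24999534-25202432, plus strand) was the most abundant of the 6 in CPM, and per length in iTgMir483 livers; in Control livers Pea15a, at 10.9 ± 1.16 TPM, had a mean above that of Dock8. Control livers ranged from 28.3 to 55.1 CPM with a median of 35.2 CPM, and iTgMir483 livers from 98.9 to 157.6 CPM with a median of 140.3 CPM. The means were 37.2 ± 9.46 CPM and 132.7 ± 25.2 CPM (SD, n = 6), a log2 fold change of 1.84 (SE 0.168), or 9.30 ± 2.69 TPM against 36.9 ± 6.38 TPM. Control replicate 1 stood apart at 55.1 CPM, above the 28.3 to 37.8 CPM of the other Control livers. The iTgMir483 livers fell into 98.9 and 104.7 CPM in replicates 1 and 2 and 135.4 to 157.6 CPM in the other 4.

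Gm30524 (ENSMUSG00000107638, chr6:140955609-141044134, plus strand) was at or near 0 counts in Control livers. It had 2 counts in all, both in Control replicate 4, the most deeply sequenced library, and 13 to 34 counts in each iTgMir483 library, 128 in all. The iTgMir483 level was 1.45 ± 0.402 CPM (SD, n = 6), from 0.953 to 2.04 CPM with a median of 1.38 CPM. From the summed counts and library sizes the ratio was 75.7, with an exact 95% interval from 20.5 to 631 that covers counting error only. The fitted log2 fold change of 5.77 (SE 0.505) depends on the prior count added to the zeros, and its size was 7.42 without Control replicate 4.

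Within the iTgMir483 group the members did not share a highest library. Replicate 3 was highest for Tspan15, Pea15a, Dock8 and Gm30524, replicate 4 for Ssbp2 and replicate 5 for Rnf24. Replicate 1 was lowest for Ssbp2, Tspan15 and Dock8, replicate 2 for Rnf24, replicate 4 for Gm30524 and replicate 6 for Pea15a. Of 15 pairs of members, 14 had a positive Pearson correlation over the 6 iTgMir483 libraries, with a median r of 0.308 and a range from -0.478 to 0.796. In Control livers 3 of 10 pairs were positive, with a median of -0.313 (Gm30524 was left out for its zeros). Tspan15 and Dock8 in iTgMir483 livers gave the highest values, r = 0.796 (two-sided exact permutation p 0.0194, adjusted 0.485 over 25 relations, n = 6) and Spearman's rho = 0.943 (exact permutation p 0.0167, adjusted 0.417). Without the 2 libraries farthest from the median, r was 0.625. No pair passed an adjusted p of 0.05.

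The relation to the transgene was examined among the iTgMir483 livers, which differed in Mir483 from 23.3 to 54.3 CPM. Pearson's r with Mir483 ran from -0.581 for Pea15a (two-sided exact permutation p 0.229, n = 6) to 0.294 for Gm30524 (exact permutation p 0.537), and each of the 6 relations had an adjusted p of 0.831. Spearman's rho ran from -0.657 for Pea15a (exact permutation p 0.175) to 0.371 for Gm30524 (exact permutation p 0.497), with adjusted p of 0.803. For Ssbp2, Tspan15, Rnf24 and Dock8, r was -0.246, -0.0991, -0.137 and -0.249 (exact permutation p 0.644, 0.831, 0.803 and 0.529), and rho was -0.314, -0.200, -0.143 and -0.429 (exact permutation p 0.564, 0.714, 0.803 and 0.419). Without replicates 2 and 6, the libraries farthest from the median of Mir483, r was -0.197 for Ssbp2, 0.0936 for Tspan15, 0.782 for Rnf24, -0.295 for Pea15a, 0.291 for Dock8 and 0.154 for Gm30524. The sign for Tspan15, Rnf24 and Dock8 thus changed without those libraries. Leaving out 1 library also changed the sign for Ssbp2 (replicate 2 or 4), Tspan15 (replicate 3), Rnf24 (replicate 2 or 3), Dock8 (replicate 2) and Gm30524 (replicate 4). No relation was detectable with 6 livers.

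**Figure D2:**
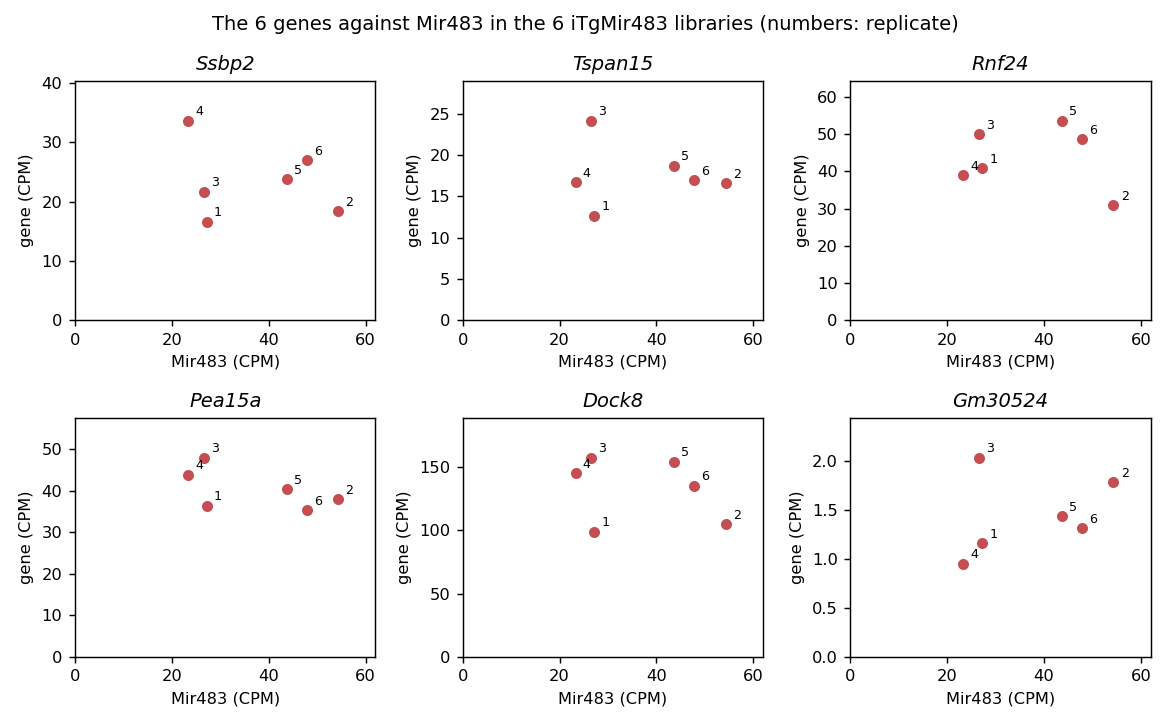
Level of each gene (y axis, CPM, starting at 0) against the Mir483 transcript (x axis, CPM) in the 6 iTgMir483 libraries, with the replicate number beside each point. Replicate 2, at 54.3 CPM of Mir483, was the lowest for Rnf24 at 30.8 CPM, and no gene rose or fell steadily with Mir483.

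The genes around each member in its pathway were taken from 11 lists of relatives, partners and targets. Of 132 listed genes 110 were tested, and 19 were higher (17.3%, against 8.41% of all genes) and 2 lower, with a median log2 fold change of 0.228 against 0.00583 over all genes. The p-values below are from edgeR's quasi-likelihood test, adjusted over all genes.

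Of the Ssbp2 paralogs, Ssbp4 rose from 3.603 ± 0.717 CPM to 11.05 ± 2.86 CPM (SD, n = 6; log2 fold change 1.62, SE 0.181, adjusted p 0.000120), and Ssbp3, the most abundant of the family by CPM in Control livers, had a log2 fold change of -0.06 (adjusted p 0.795). The Ssbp4 libraries ranged from 2.55 to 4.32 CPM and from 8.51 to 16.6 CPM. Among 11 tested partners of the LDB1 complex, Ldb1 itself rose from 51.3 ± 6.73 CPM to 116.6 ± 38.1 CPM (log2 fold change 1.19, SE 0.186, adjusted p 0.00113), and it was the only call. The LIM-only genes Lmo2 (0.35, adjusted p 0.225) and Lmo4 (-0.48, adjusted p 0.0510) did not pass, and Lmo1, Lmo3, Isl1 and Gata1 had at most 3 counts in any library.

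Tspan15 was compared with 28 other tetraspanins, of which 21 were tested. Tspan8 (log2 fold change 1.62, SE 0.326, adjusted p 0.00450), Tspan13 (1.05, adjusted p 0.0413) and the endosomal Cd63 (0.99, SE 0.204, adjusted p 0.00488) rose, and Tspan33, another escort of ADAM10, fell from 8.12 ± 2.504 CPM to 4.07 ± 1.003 CPM (SD, n = 6; log2 fold change -0.997, SE 0.225, adjusted p 0.00801). Tspan14, Tspan17 and Tspan5, the remaining escorts of that group in the tests, had values of 0.01, 0.55 and -0.16 (adjusted p 0.953, 0.0937 and 0.704). Adam10 had a log2 fold change of 0.23 (adjusted p 0.0779) and Adam17 of 0.06 (adjusted p 0.723). Among the ADAM10 substrates, the receptor tyrosine kinase Axl (1.26, SE 0.169, adjusted p 0.000421), the epidermal growth factor family ligand Btc (1.01, SE 0.210, adjusted p 0.00528) and the hyaluronan receptor Cd44 (1.02, SE 0.301, adjusted p 0.0293) rose. The N-cadherin gene Cdh2 had -0.50 (adjusted p 0.0235), under the fold threshold. Tspan13 lost its call when any of 8 single libraries was left out (Control replicates 1, 3, 4, 5 and 6 and iTgMir483 replicates 2, 4 and 5, adjusted p 0.0535 to 0.101). Cd44 lost it without Control replicate 2 or 6 or iTgMir483 replicate 4, 5 or 6 (adjusted p 0.0520 to 0.0631).

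For Rnf24, 7 of 8 related membrane RING ligases were tested. Its closest relative Rnf122 rose from 0.802 ± 0.167 CPM to 1.47 ± 0.299 CPM (SD, n = 6; log2 fold change 0.87, SE 0.218, adjusted p 0.0134; 0.0525 with no filter on low counts), and Rnf128, a ligase known from T cell anergy, fell from 74.9 ± 6.45 CPM to 46.3 ± 9.55 CPM (log2 fold change -0.69, SE 0.126, adjusted p 0.00261). The 7 TRPC channel genes were too low for the count filter. Trpc2, Trpc5 and Trpc7 had 0 counts in the 12 libraries, and Trpc1, the highest in iTgMir483 livers, reached at most 18 counts, so the channels that RNF24 binds were not measurable at this depth.

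For Pea15a, the 5 other death effector domain genes, Fadd, Casp8, Cflar, Dedd and Dedd2, did not pass (log2 fold changes from -0.14 for Casp8, adjusted p 0.413, to 0.13 for Fadd). In the ERK and RSK module 1 of 14 genes was called, Rps6ka1, which encodes the kinase RSK1 (0.92, SE 0.228, adjusted p 0.0130). Rps6ka3, which encodes RSK2, the kinase of this family known to bind PEA-15, was not called (0.11, adjusted p 0.586). The ERK1 gene Mapk3 differed by less than the fold threshold, with a log2 fold change of 0.35 (adjusted p 0.0103). Among 14 tested output genes of the ERK pathway, Ccnd1 (cyclin D1; 1.48, SE 0.411, adjusted p 0.0223) and the immediate early gene Egr1 (1.19, SE 0.356, adjusted p 0.0314) rose, while the feedback genes Dusp6 (0.29, adjusted p 0.300), Spry2 (0.52, adjusted p 0.182) and Spred1 (-0.17, adjusted p 0.525) did not pass. Ccnd1 lost its call without iTgMir483 replicate 3 (adjusted p 0.0545). Egr1 lost it when any of 6 single libraries was left out (Control replicates 4, 5 and 6 and iTgMir483 replicates 2, 3 and 5, adjusted p 0.0532 to 0.0692).

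Dock8 had the most called genes around it. Of 9 tested relatives 3 rose, among them the leukocyte exchange factor Dock2 (1.10, SE 0.247, adjusted p 0.00783) and Dock10 (1.26, SE 0.221, adjusted p 0.00218). Among 16 partners, the CDC42 effector kinase Pak1 (1.14, SE 0.227, adjusted p 0.00428), the DOCK2 cofactor Elmo1 (1.15, SE 0.288, adjusted p 0.0138), the blood cell GTPase Rac2 (0.95, SE 0.251, adjusted p 0.0180) and the Wiskott-Aldrich syndrome gene Was (0.81, SE 0.239, adjusted p 0.0298) rose. The widely expressed Cdc42 (-0.16, adjusted p 0.227), Rac1 (-0.21, adjusted p 0.0864), Wasl (-0.09, adjusted p 0.632) and Pak2 (0.00028, adjusted p 0.999) did not pass. Was lost its call without Control replicate 2 or 4 or iTgMir483 replicate 4 or 6 (log2 fold change 0.55 to 0.81, adjusted p 0.0474 to 0.0679).

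**Figure D3:**
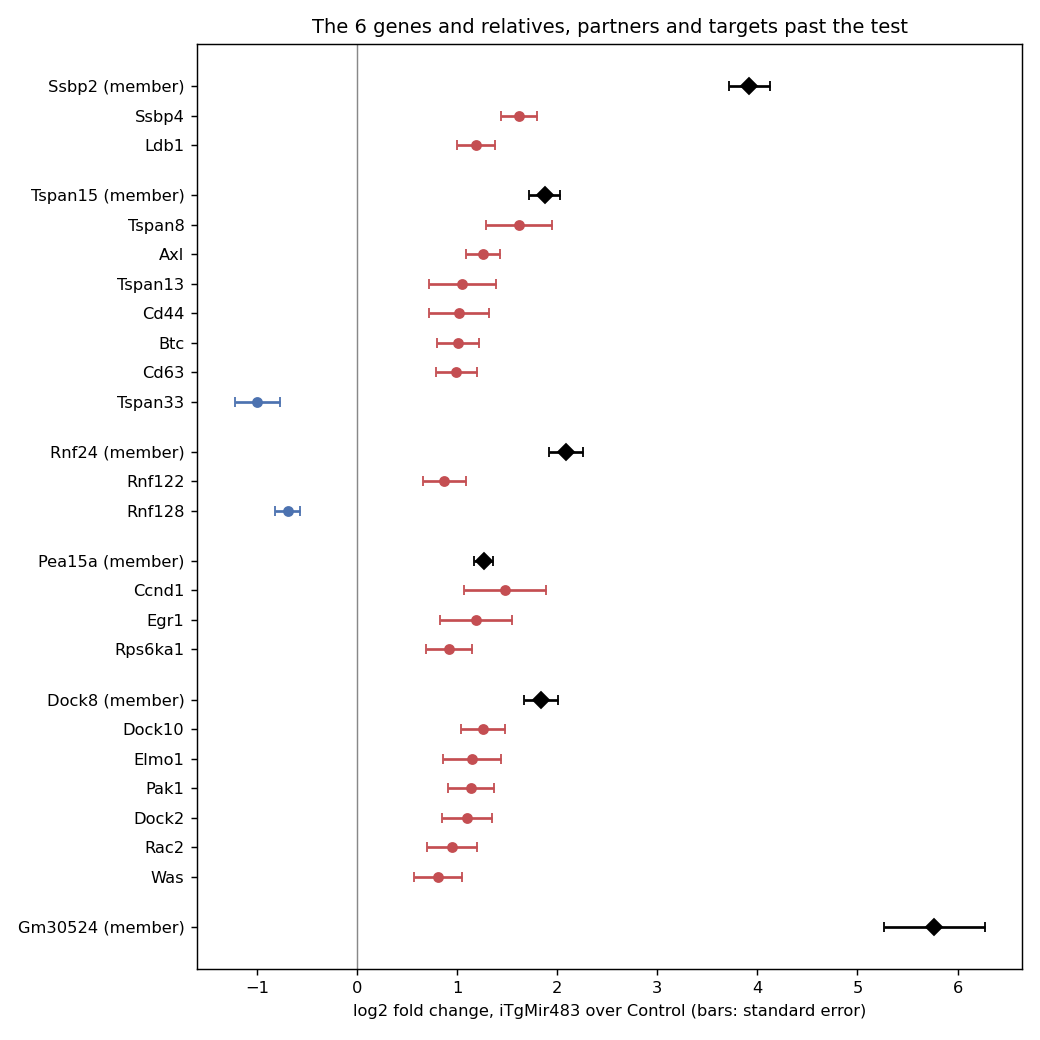
log2 fold change of iTgMir483 over Control livers (x axis) with its standard error for the 6 genes (black diamonds) and for 18 of the relatives, partners and targets called higher (red) and the 2 called lower (blue), grouped under the member they belong to. Of the genes drawn only Ccnd1 exceeds the value of its member, 1.48 against 1.26 for Pea15a, and Gm30524 has no list.

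Since Dock2, Rac2 and Was are known from blood cells, the markers of other liver cell types were read beside them. Of 12 macrophage and Kupffer cell markers 11 were higher (median log2 fold change 1.06), among them Csf1r (1.09, adjusted p 0.00358), C1qb (1.10, adjusted p 0.00163) and Marco (2.38, adjusted p 0.0143), and Vsig4 had 0.55 (adjusted p 0.0527). Marco overlapped between groups, at 9.41 to 12.7 CPM in Control livers and 10.6 to 154.0 CPM in iTgMir483 livers, and it lost its call with limma-voom (1.58, adjusted p 0.0988). Their summed level was 442.8 to 644.3 CPM in Control livers and 687.3 to 1938 CPM in iTgMir483 livers. The value of 1938 CPM was that of iTgMir483 replicate 4, and the other 5 lay between 687.3 and 1098 CPM. Without that library 9 of 12 were called (median 0.735), with Cd68 and C1qa falling under the fold threshold (log2 fold change 0.55 and 0.54). In replicate 4 the level of Dock2 was 16.8 CPM against 6.99 to 9.21 CPM in the other iTgMir483 livers, of Dock10 29.3 against 10.5 to 16.9 CPM and of Rac2 26.0 against 6.90 to 13.3 CPM. Their log2 fold changes without it were 0.845, 0.995 and 0.641, and each still passed. Ssbp4, Ldb1, Axl, Cd44, Was, Pak1 and Elmo1 were also highest in that library, Ldb1 at 180.3 CPM against 65.4 to 126.9 CPM. Without it Cd44 and Was lost their calls and the others kept theirs. Other list genes called higher, such as Rps6ka1 and Tspan8, were lowest in that library.

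The order of Dock8 across the iTgMir483 livers was not that of the macrophage markers. In replicate 4 it was 145.2 CPM, the third highest of 6, and its highest level of 157.6 CPM was in replicate 3, the iTgMir483 liver with the lowest marker sum. Without replicate 4 the log2 fold change was 1.81 for Dock8, 1.89 for Tspan15, 2.12 for Rnf24 and 1.24 for Pea15a, while Ssbp2, highest in that library at 33.6 CPM, had 3.79. How far macrophages contribute to the level of any member was not tested.

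**Figure D4:**
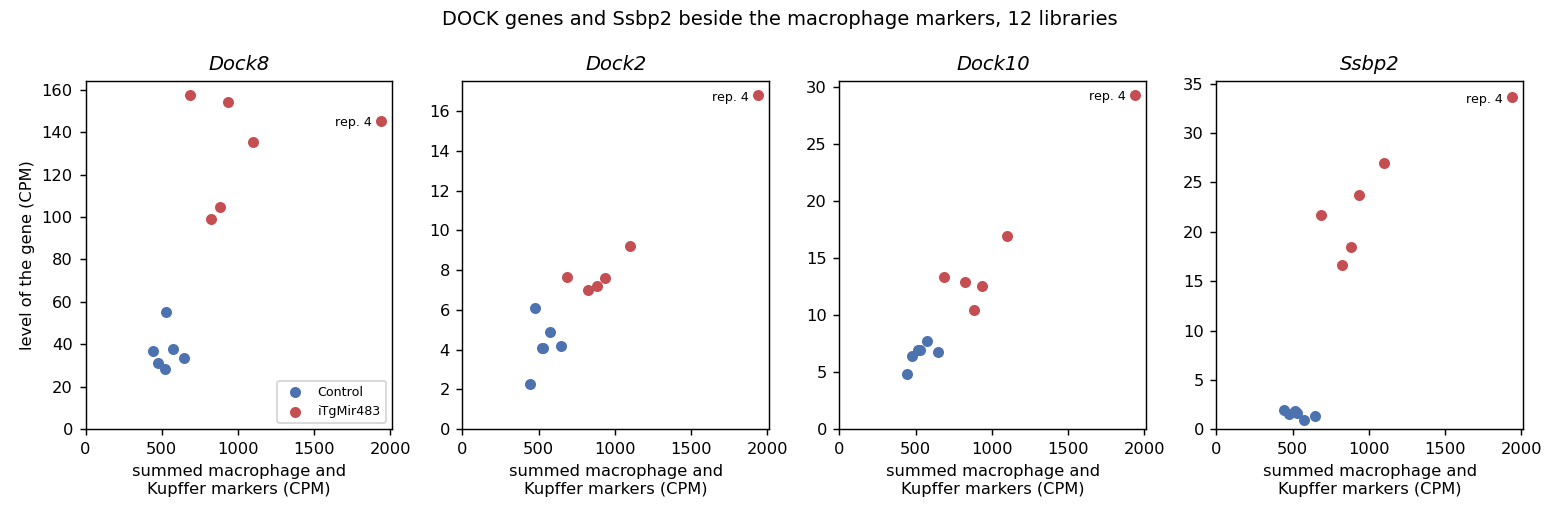
Level of Dock8, its relatives Dock2 and Dock10, and Ssbp2 (y axes, CPM, starting at 0) against the summed level of 12 macrophage and Kupffer cell markers (x axis, CPM) in the 12 libraries. The library iTgMir483 replicate 4, with a sum of 1938 CPM, is the highest for Dock2, Dock10 and Ssbp2 and not for Dock8.

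Other cell type markers also differed between the groups. Of 5 tested bile duct markers 3 were higher, Krt7 (1.34, adjusted p 0.00887), Epcam (1.41, adjusted p 0.00490) and Spp1 (1.31, adjusted p 0.000517), while Krt19 (0.10, adjusted p 0.825) and Sox9 (0.26, adjusted p 0.425) did not pass. Their summed level was 21.0 to 46.1 CPM in Control livers and 60.8 to 89.4 CPM in iTgMir483 livers. Most of it was Spp1, at 16.2 to 38.0 CPM and 52.0 to 77.1 CPM. The 3 iTgMir483 livers with the highest sums, replicates 3, 5 and 6, were also those with most Tspan15 and most Rnf24. For Tspan15 the margin was small, with 16.95 CPM in replicate 6 against 16.71 CPM in replicate 4 and 16.63 CPM in replicate 2. Replicates 3, 5 and 6 also had the highest summed hepatocyte markers of the iTgMir483 livers. Those sums were 125600 to 141500 CPM, against 69090 to 107000 CPM in replicates 1, 2 and 4, so the order was not particular to the bile duct list. Neutrophil genes S100a8 (2.32, adjusted p 0.00112), S100a9 (2.67, adjusted p 0.00229) and Csf3r (1.48, adjusted p 0.00165), the 3 tested of 6, rose, while Ly6g had at most 2 counts in any library. Of 4 tested lymphocyte markers Cd4 alone passed (0.96, adjusted p 0.0255, and 0.0526 to 0.0688 without Control replicate 4, 5 or 6 or iTgMir483 replicate 5). The single tested dendritic cell marker, the 7 of sinusoidal endothelium, the 8 of stellate cells and fibroblasts and the 5 tested of red blood cells were not called. Of 8 hepatocyte genes Cps1 fell (-1.21, adjusted p 0.00476), and Alb had 93610 to 135500 CPM in Control livers and 36000 to 107800 CPM in iTgMir483 livers. The 18 of 53 tested markers that were higher made up 34.0%. The part of the bile duct, neutrophil and hepatocyte shares in the members' levels was not tested.

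The chromosomal surroundings were examined next, since the 6 genes lie on 6 chromosomes. Within 200 kb of the members 75 genes were annotated and 31 tested, and 5 were higher and 3 lower, where 8.41% and 2.73% of all genes tested were. They were Fam241b beside Tspan15 (1.25, adjusted p 0.0239, 41.5 kb), Smox (0.78, adjusted p 0.00618, 139.0 kb) and Hspa12b (0.69, adjusted p 0.0356) near Rnf24, and Igsf8 (0.67, adjusted p 0.0199, 54.8 kb) and Kcnj10 (0.999, adjusted p 0.0140) near Pea15a on the higher side. On the lower side were Rasgrf2 near Ssbp2 (-1.23, adjusted p 0.0273), the pseudogene Gm5424 near Tspan15 (-1.04, adjusted p 0.00260) and Gm10053 near Dock8 (-0.84, adjusted p 0.0194). The closest tested genes to Ssbp2 and Dock8 that do not overlap them were Acot12 (-0.40, adjusted p 0.0208, 38.1 kb) and Kank1 (0.12, 34.5 kb), and neither was called. Gm30524 had no tested gene within 200 kb.

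The calls of 4 of these 8 genes lay near the thresholds. Their log2 fold changes without single libraries were 0.57 to 0.73 for Hspa12b, -1.20 to -1.14 for Rasgrf2, 1.09 to 1.18 for Fam241b and 0.52 to 0.59 for Igsf8 where the call was lost. Hspa12b lost its call when any of 9 single libraries was left out, all but Control replicates 3 and 6 and iTgMir483 replicate 2 (adjusted p 0.0522 to 0.0768). Rasgrf2 lost it without Control replicate 2 or 4 or iTgMir483 replicate 3, 4 or 6 (adjusted p 0.0517 to 0.0614), and Fam241b without Control replicate 4 or iTgMir483 replicate 2 or 3 (adjusted p 0.050 to 0.0615). Igsf8 lost it without Control replicate 4 (adjusted p 0.0514) or iTgMir483 replicate 4 (log2 fold change 0.52). Smox, Kcnj10, Gm5424 and Gm10053 kept theirs in each alternative that could test them.

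**Figure D5:**
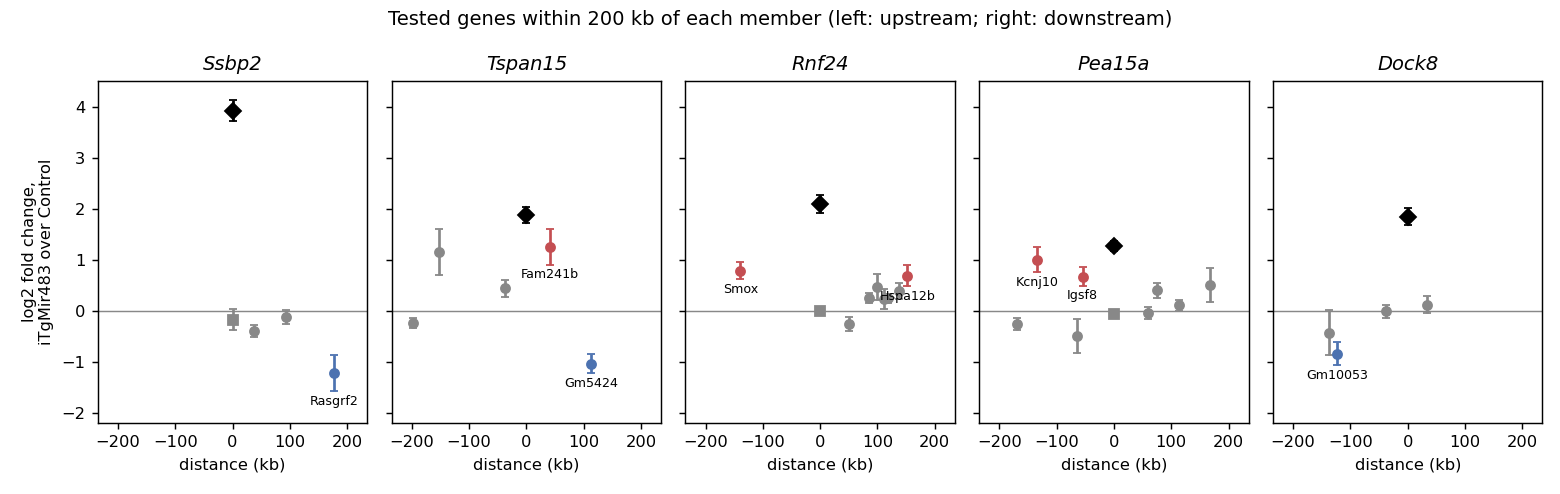
log2 fold change with its standard error (y axis) of tested genes within 200 kb of Ssbp2, Tspan15, Rnf24, Pea15a and Dock8, against the distance from the gene body in the direction of transcription (x axis, kb), with the gene itself as a black diamond. Squares are genes that overlap the member on the other strand, red and blue mark the 5 genes called higher and the 3 called lower, grey marks genes not called, and no neighbour lies above its member.

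The genes that overlap a member on the opposite strand were read because the strand setting of the counting is not given in the sources used here. The antisense gene 4833422C13Rik overlaps the 3′ end of Ssbp2 over 1765 bases and had 1.58 ± 0.381 CPM and 1.38 ± 0.246 CPM (SD, n = 6), a log2 fold change of -0.18 (adjusted p 0.586). Pank2, overlapping Rnf24 over 1125 bases, had a log2 fold change of -0.01 (adjusted p 0.937), and Dcaf8, overlapping Pea15a over 278 bases, of -0.06 (adjusted p 0.630). None of these partners was called, while their members differed by 3.92, 2.09 and 1.26. Of all 50-base words in the annotated transcripts of each member, the share found in transcripts of other genes on the same strand was 2.82% for Ssbp2, 0.283% for Tspan15 and 0 for Rnf24, Pea15a, Dock8 and Gm30524. On the opposite strand the share was 22.5% for Ssbp2, 16.3% for Rnf24, 1.90% for Pea15a, 0.246% for Tspan15 and 0 for Dock8 and Gm30524.

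RefSeq promoter windows, 250 bases before to 50 bases after the start site (GRCm38.p6), were matched for all 6 genes. The coding members had GC contents from 60.0% for Pea15a to 78.0% for Dock8, and Gm30524 had 30.7% and no CpG. Over 32851 windows the median was 52.7% and the quartiles were 45.7% and 61.7%, so Pea15a lay between the quartiles. Letters were searched on both strands. GGGCGG was present for Ssbp2, Rnf24, Pea15a and Dock8 (35.7% of all windows), CCAAT for Ssbp2, Tspan15, Pea15a and Gm30524 (37.4%), TATAAA for Gm30524 (13.6%), CCGGAA for Dock8 (14.9%), TGANTCA for Tspan15 (7.81%) and CACGTG for none (7.15%). No motif was shared by all 6. A stretch of Dock8 with its pair of GGGCGG (chr19:24999443-24999472, plus strand) and one of Gm30524 with TATAAA read on the other strand (chr6:140961838-140961867, plus strand) are printed to show the contrast in composition, with the matches in capitals. The Gm30524 window belongs to a RefSeq start that lies inside the gene body of the annotation used for the counts.
Dock8: caggccGGGCGGcgccgcGGGCGGcggagg
Gm30524: aaccacaaaattTTTATAacccaagattat

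The genes whose pattern over the 12 libraries was most like each member were found by the root mean square difference of centred log2 CPM among 10549 genes whose mean count was 50 or more. They were H2-Q1 (0.414) and Osbpl3 (0.815) for Ssbp2, Adgrg1 (0.306) and Casp6 (0.308) for Tspan15, Adgrg1 (0.291) and Slc29a3 (0.397) for Rnf24, S100a11 (0.223) and Atp8b2 (0.227) for Pea15a, and Slc29a3 (0.272) and Casp6 (0.284) for Dock8. For Gm30524 they were again H2-Q1 (0.464) and Osbpl3 (0.872), so Adgrg1, Casp6 and Slc29a3 were each shared by a pair of Tspan15, Rnf24 and Dock8. This measure is dominated by the difference between groups on which the members were chosen, and H2-Q1 belongs to a family of similar genes that can share reads. By the correlation of deviations from the group means, which leaves that difference out, the nearest genes were Parp16 for Ssbp2 (r = 0.891), Elovl2 for Tspan15 (0.945), Ptpn11 for Rnf24 (0.856), Itgb1bp1 for Pea15a (0.853), Ckap5 for Dock8 (0.885) and Crot for Gm30524 (0.838). These values are the highest of 10549 genes over 12 libraries and are given as a description.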

How the data were processed

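Poly(A) RNA from 12 livers was sequenced, and per the labels and the study's methods the authors aligned reads to GRCm38 (Ensembl annotation) with STAR 2.5.0a and deposited raw counts per gene. The strand column used for the counts is not given in the sources used here. The sample titles and descriptions name no batch, so none could be examined. Groups came from the sample titles. The smallest chi-square per gene between replicate libraries was 14.3, so each library was 1 replicate.

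Genes were filtered with filterByExpr and compared with edgeR 4.0.16 (limma 3.58.1, R 4.3.3), using TMM scaling, the quasi-likelihood F-test and Benjamini-Hochberg adjustment over 13205 genes. A gene was called at an adjusted p under 0.05 and a fold over 1.5. Standard errors were taken as the log2 fold change over √F. Tests were checked on simulated data. Levels are CPM, and TPM used exon-union lengths. Alternatives were RLE size factors, other filters, DESeq2 1.42.0, limma-voom, a replicate block, single libraries left out, no fold threshold and, chosen after seeing the data, both libraries numbered 1 left out. Same-numbered libraries did not pair as a set: only 2 of 6 had deviations from the group means correlated over 0.1. The correlation was 0.44 for the libraries numbered 1, 0.167 for those numbered 5 and 0.034 to 0.053 for the others.

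Symbols, positions and 3′ UTRs came from GENCODE M21 (GRCm38, another release than the authors' Ensembl genes), and microRNA and promoter sequences from RefSeq (GRCm38.p6). Protein sequences were not used here. Named genes were the 6 members, Mir483, called list genes (for a list without a call, the gene with the smallest p), called or overlapping neighbours, and per member 2 genes nearest in pattern and 1 in deviations. Some genes that meet this rule are counted but not reported here. Others were named after their values were seen, as background to a list. The members and lists were chosen with earlier results of these data known. Exact permutation tests were two-sided. Intervals cover counting error only.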

Additional observations from a re-analysis of the deposited data

Results flagged for a closer look

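In 132 groups of 6 values (members, Mir483, the list genes and neighbours named, and summed marker levels), Dixon's test was applied to the outermost library, as its distance from the nearest of the other 5 over the range of all 6. The critical value was exceeded in 18, where chance gives about 1 in 20, or 6.6. Among the members this held for Dock8 in Control replicate 1 (ratio 0.644; 55.1 CPM against 28.3 to 37.8 CPM). Leaving it out gave Dock8 a log2 fold change of 1.98.

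Most of the others were high levels in iTgMir483 replicate 4. They were the relatives, partners and substrates Dock2 (0.773; 16.8 CPM against 6.99 to 9.21 CPM), Dock10 (0.657), Rac2 (0.664), Was (0.655), Axl (0.815; 93.8 CPM against 47.3 to 55.9 CPM) and Ssbp4 (0.630). The macrophage genes Adgre1 (0.790), Cd5l (0.796), Cd68 (0.690), Csf1r (0.705), C1qa (0.734), C1qb (0.780) and C1qc (0.732) and the summed macrophage and Kupffer list (0.672) were high in the same library. None of the 6 members had such a ratio there. Without it the log2 fold change of Adgre1 was 0.697 and of Cd5l 0.646, against 1.13 and 1.03 with all libraries, and both passed.

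The remaining ratios were in Control livers: Ldb1 in replicate 6 (0.653; 64.3 CPM against 45.5 to 52.0 CPM), C1qb in replicate 3 (0.641) and the summed stellate cell and fibroblast list in replicate 5 (0.674).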

How the results depend on the processing

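The log2 fold changes of Ssbp2, Tspan15, Rnf24, Pea15a and Dock8 kept their size within 1 SD with the other size factors, filters, tools, the block and omitted libraries. Leaving out single libraries gave 3.79 to 3.999, 1.76 to 1.95, 2.01 to 2.23, 1.21 to 1.30 and 1.76 to 1.98. Gm30524 had 5.18 with limma-voom and 5.57 to 7.42 without single libraries, and could not be fitted at 10 counts in every library. Without a fold threshold 968 genes were lower, and 7 relatives, partners and targets. Neighbours called higher numbered 10 in a 500 kb window, 3 without both libraries numbered 1, and 2 to 5 without single libraries. Markers called lower numbered 2 with no filter or no fold threshold and 1 to 2 without single libraries. Pank2, near 0, had 0.000499 at 10 counts in every library and -0.0346 to 0.0206 without single libraries. Without single iTgMir483 libraries, r with Mir483 ran from -0.580 to 0.328 for Ssbp2, -0.482 to 0.492 for Tspan15, -0.345 to 0.687 for Rnf24, -0.857 to -0.471 for Pea15a, -0.706 to 0.157 for Dock8 and -0.0298 to 0.910 for Gm30524. The causes were not tested. The replicate block used numbers that do not pair the libraries as a set. With the block 1106 genes were higher and 424 lower by edgeR's test. Of the relatives, partners and targets 18 were higher, without Was among them (adjusted p 0.0539). Marco passed with the block at 1.62. Among named genes, Tspan13, Cd44, Was, Egr1, Ccnd1 and Marco lost their calls with limma-voom (adjusted p 0.0511 to 0.0988), Tspan13, Rnf122, Cd4 and Hspa12b with no filter on low counts (0.0525 to 0.0873), and Fam241b and Hspa12b without both libraries numbered 1 (0.0521 and 0.0888). Depth limits Gm30524 in Control livers and the TRPC channels.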

Other observations

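Several genes tied to the members passed an adjusted p of 0.05 by edgeR's quasi-likelihood test while differing by less than the fold threshold. They included Akt1 (log2 fold change 0.33, adjusted p 0.0102), which encodes a kinase of PEA-15, Dock6 (0.40, adjusted p 0.0160), the WASP-binding gene Wipf1 (0.52, adjusted p 0.0395) and the tetraspanin Cd151 (0.29, adjusted p 0.0412) on the higher side. On the lower side were the DOCK8-linked adaptor gene Mob1b (-0.43, adjusted p 0.0324), the ARP2 gene Actr2 (-0.29, adjusted p 0.0208) and the ligase gene Rnf149 (-0.34, adjusted p 0.0277).

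The processed pseudogene Gm7384, 93.9 kb from Gm30524 on the same strand, had 33 counts over the 12 libraries and was too low for the count filter. Its level was 0.0305 ± 0.0381 CPM in Control livers and 0.341 ± 0.233 CPM in iTgMir483 livers (SD, n = 6). It was chosen after its values were seen and was not tested.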
